A study of Mus musculus with 15 samples.

Results

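Col2a1, Col11a2 and Acan encode major components of cartilage matrix, and each has a cassette exon that differed between mutant and wild-type forelimb RNA in the deposited table. They are 3 of the 84 genes of that table and hold 4 of its 98 events, found by gene symbol. Inclusion of all 4 exons was higher in the mutant, by 12.7 to 29.3 percentage points. Mbnl3 CLIP tags lay in the Col2a1 event, mostly in its 3′ part, while the Acan event held 4 distinct molecules and the Col11a2 event none.

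RNA-seq was done on forelimbs of female mouse embryos at day 15, 3 homozygous for the Mbnl3 ΔE2 allele and 3 wild type (WT). HITS-CLIP, which sequences RNA crosslinked to a protein and precipitated with its antibody, was done for Mbnl3 on ΔE2 and WT forelimbs of strain BL6 at the same age and on C2C12 cells, a wild-type mouse myoblast line grown in medium with 20% serum. There were 3 libraries of each kind, and a forelimb CLIP library pooled 4 forelimbs of 2 embryos. The exon table gives 1 total per genotype, and C2C12 is 1 combined set, so neither shows a spread between replicates. The titles call the mutant Mbnl3 KO. A header of the exon table names Mbnl2 in place of Mbnl3 for the mutant, so that its values are given here for the knockout column. The table lists changed cassette exons only, so the deletion in Mbnl3 and the cell types of the limb were not analysed here.

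Muscleblind proteins bind RNA and promote the skipping or inclusion of exons, depending on where they bind. Col2a1 encodes the chain of type II collagen, the main fibre of cartilage. Its alternatively spliced second exon encodes a cysteine-rich domain of the amino-terminal propeptide: the form with this exon, IIA, is known from chondroprogenitors and the form without it, IIB, from differentiated chondrocytes. Col11a2 encodes a chain of type XI collagen, which joins type II collagen in thin fibrils, and exons of its amino-terminal propeptide are alternatively spliced. Acan encodes aggrecan, the large proteoglycan that holds water in cartilage, whose carboxy-terminal domain is known to carry optional modules. The table gives the exons by position and does not number them.

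The depth of the CLIP libraries sets how much can be read from these loci. ΔE2 libraries held 67279, 40531 and 59115 tags and WT libraries 35413, 74123 and 124309, while the C2C12 set held 550124 after repeats were counted once. A molecule is a tag with a given position, strand and barcode. In ΔE2, replicates 2 and 3 had 33916 molecules in common, which made up 83.7% of replicate 2 and 57.4% of replicate 3, and these libraries were counted as 1 of 65730 tags. In WT, the overlap of replicates 2 and 3 was smaller, 32.4% of replicate 2 and 19.3% of replicate 3, and they were kept apart.

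The Col2a1 exon was present in 2 forms that differ by 3 nt. Both lie in an event at chr15:97829706-97835074 (mm9, minus strand) and measure 204 and 207 nt, or 68 and 69 codons. Inclusion was computed from junction tags, as the mean of the upstream and downstream inclusion junctions over that mean plus the skipping junction. Inclusion of the 204-nt form was 67.8% in the knockout column (95% Wilson interval 63.1 to 72.1) and 52.8% in WT (47.9 to 57.8), a difference of 15.0 points (8.17 to 21.5). That of the 207-nt form was 58.9% in the knockout column (53.5 to 64.2) and 44.9% in WT (39.6 to 50.2). All intervals of inclusion rest on tags rounded to whole numbers and cover counting error only. The authors' deposited table gives adjusted Fisher p-values of 2.67e-05 and 7.3e-05 for these forms, with odds ratios of 0.52 and 0.54 for WT over the knockout column. These p-values compare group totals and hold no variation between embryos. The forms share their upstream and skipping junctions and are therefore not separate evidence. Since the shared upstream junction enters both values, neither value is the share of RNA that carries that form. The 207-nt form had only 9.66% of the downstream junction tags in the knockout column and 9.32% in WT.

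The inclusion and skipping junctions of Col2a1 differed in opposite directions in the deposited totals. The upstream inclusion junction had 360.1 tags in the knockout column and 284.1 in WT. The downstream junction of the 204-nt form had 200.7 tags in the knockout column and 123.4 in WT, and that of the 207-nt form 21.4 and 12.7. The skipping junction had 132.9 tags in the knockout column and 181.9 in WT. Tags inside the exon were 502 in the knockout column and 351 in WT. These totals are not scaled for depth, and the median event of the table had 1.66 times as many junction tags in the knockout column as in WT. Relative to that median, the upstream junction of Col2a1 was at 0.77, the exon body at 0.86 and the skipping junction at 0.44 times WT. The downstream junction was at 0.98 for the 204-nt form and 1.02 for the 207-nt form. More tags of the upstream junction, the 204-nt downstream junction and the exon body were thus seen only without scaling to this median. Fewer skipping tags were seen either way. The scaling is rough, since the middle range of the ratio over event spans was 1.46 to 1.93. The unscaled ratio of the 204-nt downstream junction, 1.63, lies within that range. Inclusion is a ratio within a column and does not change with this scaling. With both forms counted jointly, inclusion was 68.7% in the knockout column and 53.6% in WT, a difference of 15.1 points (8.38 to 21.6).

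No difference was detectable in the choice between the 2 forms. A form of this exon with a few more bases at its downstream splice site is known as IID. Of the tags leaving the exon downstream, 9.66% belonged to the longer form in the knockout column (95% Wilson interval 6.27 to 14.03) and 9.32% in WT (5.67 to 15.7). The difference of 0.34 points has an interval from -6.99 to 5.90, so that a shift of a few points in either direction would not have been detectable at this depth. The upstream junction had 1.62 times the tags of the downstream junctions in the knockout column and 2.09 times in WT.

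**Figure D1:**
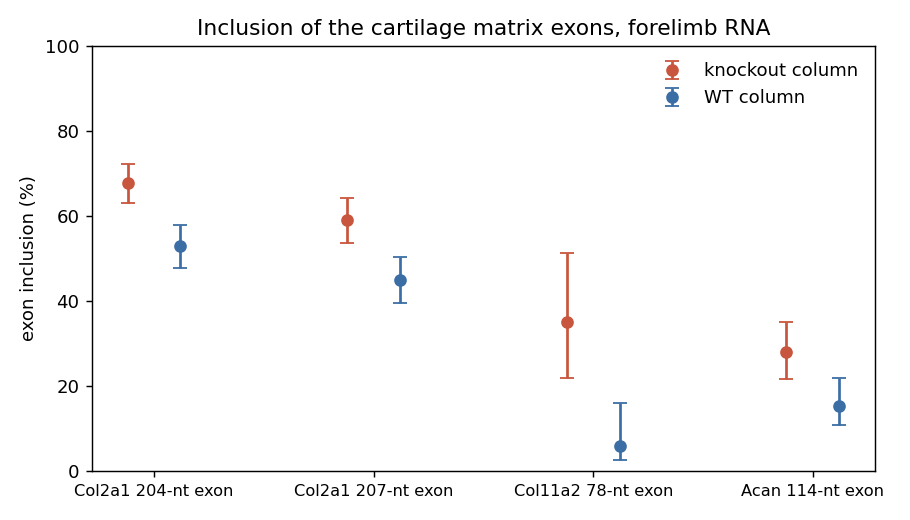
Inclusion (percent, y axis) of the 4 events of Col2a1, Col11a2 and Acan (x axis) in the knockout and WT columns of the exon table; points are inclusion from junction tags and bars are 95% Wilson intervals, which cover counting error only. The knockout column is the higher one at each exon, from 35.1% against 5.88% at Col11a2 to 27.96% against 15.3% at Acan.

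Col11a2 had the widest change of the 3 genes and the fewest tags. Its 78-nt exon, of 26 codons, lies in an event at chr17:34181764-34183446 (mm9, plus strand). Inclusion was 35.1% in the knockout column (95% Wilson interval 21.8 to 51.2) and 5.88% in WT (2.62 to 15.9), a difference of 29.3 points (12.3 to 45.1). The upstream junction had 16 tags in the knockout column and 5 in WT, the downstream junction 10 and 2, and the skipping junction 24 and 56. Relative to the median event, these were 1.93, 3.02 and 0.26 times WT, so the inclusion junctions were higher and the skipping junction lower with and without scaling. Inside the exon there were only 2 tags in the knockout column and 1 in WT. In the authors' deposited table the adjusted p was 0.000191 and the odds ratio of WT over the knockout column 0.13.

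Acan gained its exon by the narrowest margin. This exon of 114 nt, or 38 codons, lies in an event at chr7:86242638-86256337 (mm9, plus strand). Inclusion was 27.96% in the knockout column (95% Wilson interval 21.6 to 35.2) and 15.3% in WT (10.7 to 21.9), a difference of 12.7 points (3.39 to 21.1). The upstream junction had 45.2 tags in the knockout column and 16.1 in WT, and the downstream junction 47.2 and 33.1. The skipping junction had 119.0 tags in the knockout column and 136.4 in WT. Relative to the median event, the upstream junction was at 1.69, the downstream junction at 0.86 and the skipping junction at 0.53 times WT, so the downstream junction was higher in the unscaled totals only. Tags inside the exon were 4 in the knockout column and 6 in WT. In the authors' deposited table the adjusted p was 0.0248, short of the stricter 0.01 that the other 3 events passed.

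**Figure D2:**
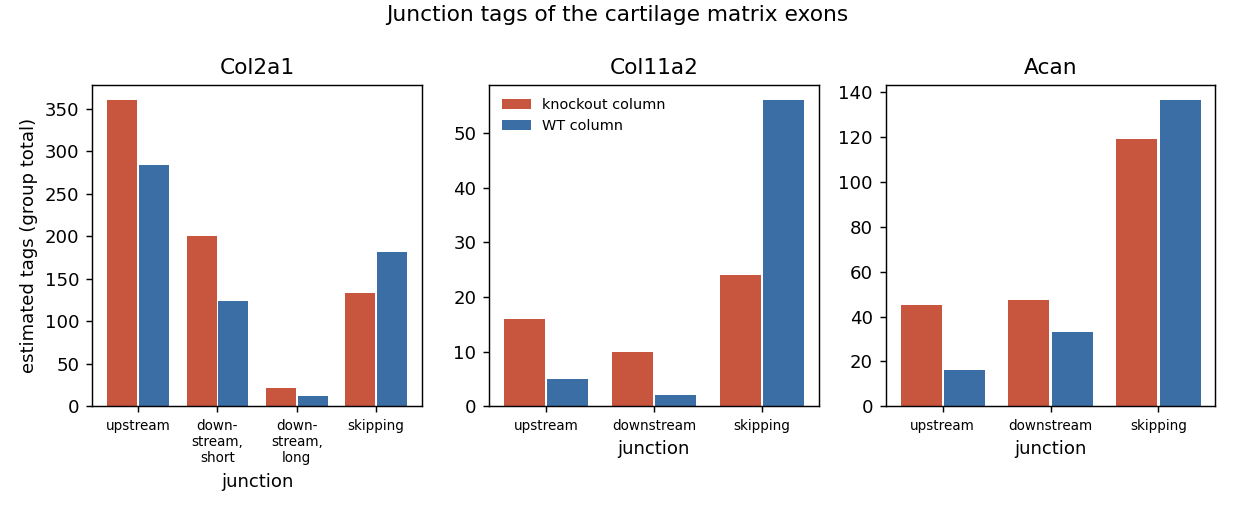
Estimated tags (y axis, group totals, with 1 scale per gene) on each inclusion and skipping junction (x axis) of Col2a1, Col11a2 and Acan, in the knockout and WT columns; Col2a1 has a downstream junction for its short (204-nt) and long (207-nt) form. In these unscaled totals each inclusion junction is higher and each skipping junction lower in the knockout column, for example 24 against 56 skipping tags at Col11a2; relative to the median ratio of 1.66, the Col2a1 upstream and short downstream junctions and the Acan downstream junction are not higher.

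Higher inclusion was common in the table, so the direction of the 4 events is read against it. Of all 98 events, 53 had higher inclusion in the knockout column, or 54.1%, and the table holds only events with an adjusted p up to 0.0498. The smallest listed gain was 10.9 points and the smallest listed loss -10.1 points, so smaller changes are not represented. Among the 53 gains, Col11a2 ranked 7th, between Top3b (29.4 points) and 5730419I09Rik (28.7 points). The 204-nt form of Col2a1 ranked 28th, next above Mtf2 (14.9) and just under the median gain of 15.1 points. The 207-nt form ranked 33rd, between Cdk2 (14.05) and Mpv17 (13.99), and Acan ranked 46th, between Atp5c1 (12.8) and Atf2 (12.2). At a stricter adjusted p of 0.01, 39 of the 98 events were left, of which 20, or 51.3%, were gains (20.4% of all 98), among them 3 of the 4 cartilage events. Of the 30 cartilage symbols, no other had a listed event. The median change of the 4 events, all gains and with both Col2a1 forms counted, was 14.5 points. This was under the median gain of 15.1 points, and the median of 11.6 over all 98 mixes gains with losses. A muscle list of 26 symbols had 1 listed event, in Dysf, at 9.499% in the knockout column and 37.5% in WT. A skin list of 14 symbols had 1, in Fgfr2, at 47.7% in the knockout column and 63.2% in WT. Neither list holds all genes of its tissue, so 1 event in each gives no direction for muscle or skin. A gene without a listed event may not have been tested, or may not have passed.

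The lengths of the 4 exons are all multiples of 3, so that each can be kept or skipped without a shift of reading frame. This holds for 59 of the 98 exons, or 60.2%, and for 64.2% of gains and 55.6% of losses. The Col2a1 exon is long for the table, where the median is 80.5 nt and 7 exons reach 204 nt. The introns before and after it measure 3802 and 1111 nt to the 204-nt form, those of Col11a2 760 and 591 nt, and those of Acan 6880 and 3065 nt. The medians of the table are 1766.5 nt before and 1842 nt after the exon, so Acan lies above both and Col11a2 below both.

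The genes also stood low in their total of junction tags. Summing the mean inclusion junction and the skipping junction, Col2a1 had 413 tags in the knockout column and 386 in WT, a ratio of 1.07 (95% interval from counting error 0.93 to 1.23). For Acan the total was 165.2 in the knockout column and 161 in WT, a ratio of 1.03 (0.83 to 1.27). Col11a2 had 37 tags in the knockout column and 59.5 in WT, a ratio of 0.62 (0.41 to 0.94). The median ratio over the 88 distinct event spans was 1.66, with a middle range of 1.46 to 1.93. Ordered from the lowest, Col11a2, Acan and Col2a1 were 2nd, 5th and 6th of the 88. Relative to the median span, their tags in the knockout column were 0.38, 0.62 and 0.65 times those in WT. This order was noticed in the data and is a description of 2 totals without replicates. In bulk RNA, fewer cells of a type and less RNA per cell cannot be told apart, and the part of either in the change of inclusion was not tested.

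**Figure D3:**
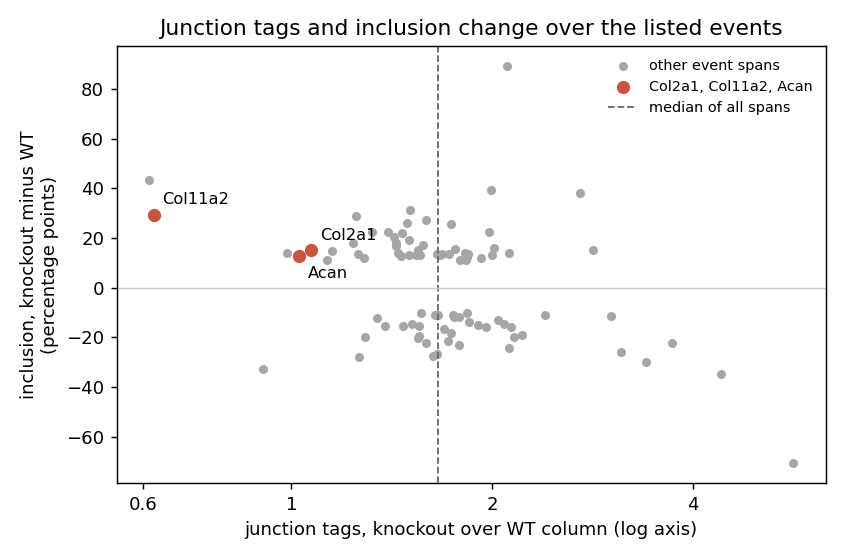
Ratio of junction tags in the knockout over the WT column (x axis, log scale) against the change of inclusion (y axis, percentage points) for the 88 event spans, with Col2a1 (204-nt form), Col11a2 and Acan marked and the median ratio of 1.66 as a dashed line. The 3 cartilage genes lie left of the line, at ratios of 1.07, 0.62 and 1.03, and above 0 in inclusion.

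CLIP tags were then counted on the same strand within each event, as counts per 1000000 tags of the library (CPM). In the Col2a1 event, ΔE2 replicate 1 had 2 tags, or 29.7 CPM, and the merged ΔE2 replicates 2 and 3 had 2, or 30.4 CPM. The WT libraries had 2, 7 and 11 tags, or 56.5, 94.4 and 88.5 CPM. The ΔE2 libraries were thus both below the 3 WT libraries, at 30.1 ± 0.50 CPM (SD, n = 2) against 79.8 ± 20.4 (SD, n = 3), a ratio of 0.38. A two-sided exact permutation test gave p = 0.2, and 0.1 was the smallest it could give. No overlap with ΔE2 below WT was seen at 4 of the 88 spans, or 4.55%, and at 2 of the 21 with at least 10 tags, or 9.52%. Tags in all other event spans together ran the other way, with 2017 ± 267 CPM in ΔE2 (SD, n = 2) and 1549 ± 326 in WT (SD, n = 3; exact permutation p = 0.3). CPM is not scaled to RNA level. Relative to the median span, the Col2a1 junction tags in the knockout column were 0.65 times those in WT. Junction tags come from spliced RNA, and the level of unspliced RNA, which holds the introns, was not measured. Less of the RNA and less binding therefore cannot be told apart at Col2a1.

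The fit over all spans gave no call for these genes. The low-count filter kept 2 of the 88 spans, neither of a cartilage gene, and edgeR called 1 of them, or 50.0%, that of Fgfr2, which is named after its value was seen. Without the filter, edgeR tested 67 spans and called 0, or 0.0%, with 5 at an unadjusted p under 0.05, and DESeq2 called 0 with 0 under that limit. There the log2 ratio of ΔE2 over WT at Col2a1 was -1.46 (SE 0.49), with an edgeR adjusted p of 0.482 (unadjusted 0.0339). The difference at Col2a1 rests on 4 ΔE2 tags, which leave a rate of 8.19 to 77.0 CPM by the exact Poisson interval, against 52.2 to 132 for the 20 WT tags. These intervals cover counting error only. Molecules shared between WT libraries were counted in each, so the 20 WT tags came from 16 distinct molecules and are not all independent.

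**Figure D4:**
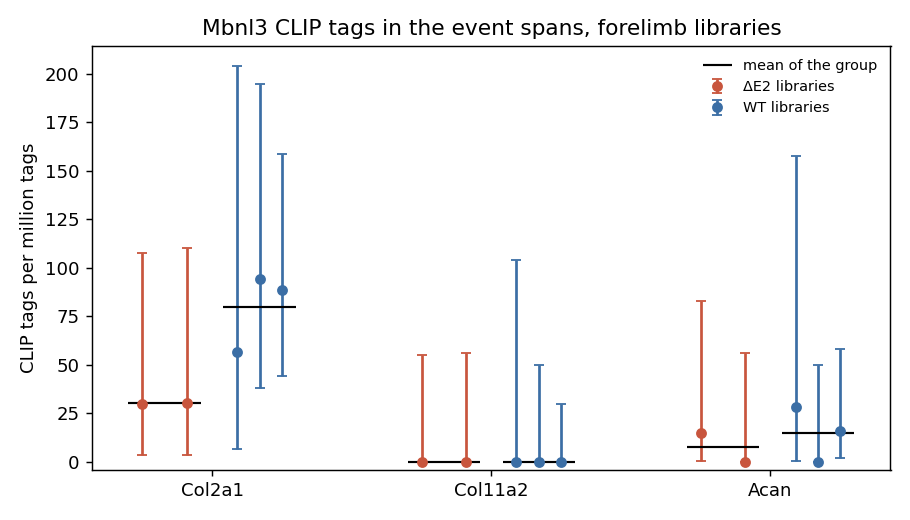
CLIP tags in CPM (y axis, tags scaled to 1000000 tags of the library) in the event spans of Col2a1, Col11a2 and Acan (x axis), with 1 point per forelimb library, exact 95% Poisson intervals of the counts as bars and the group mean as a line; ΔE2 replicates 2 and 3 are 1 point. At Col2a1 both ΔE2 points lie near 30 CPM, under the WT points from 56.5 to 94.4, with intervals that overlap.

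Some molecules in the Col2a1 event were seen in more than 1 library. Counted in the 6 libraries as labelled, the 5 ΔE2 tags and the 20 WT tags came from 19 distinct molecules, 4 with a tag in ΔE2 and 16 in WT. Of these 19, 6 appeared in several libraries, and 1 appeared in both genotypes, with 1 read in ΔE2 replicate 3 and 165 in WT replicate 3. With each molecule kept only in the library that held most of its reads, the difference between ΔE2 and WT at Col2a1 was -41.0 CPM (exact permutation p = 0.3), against -49.7 in the full count. With tags of at least 2 reads it was -32.4 CPM (exact permutation p = 0.3). Both alternatives were chosen after the data were seen.

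Tags in Col2a1 gathered in the 3′ part of the event. The table gives distances between splice sites but not the split of the 252 nt of flanking exon between both ends. Counted from the 5′ end of the 5369-nt event, the exon therefore lies somewhere from 3803 to 4261 nt and the downstream exon begins at 5118 nt or later. Of the 19 molecules, 17 lay in the last 29.2% of the event, from 3803 nt on. Depending on that split, 2 to 4 molecules lay wholly in the upstream intron, 2 to 4 touched the exon and 11 to 14 lay wholly in the downstream intron. The stretch within which the exon lies had 6 molecules, 1 of them in ΔE2 and 5 in WT. Of the 11 that lay in the downstream intron under every split, 10, with 2 in ΔE2 and 9 in WT, lay from 4791 to 5091 nt. Their distance from the downstream exon depends on the split. The molecule in both genotypes is among these 10. All 3 WT libraries had tags in this stretch.

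**Figure D5:**
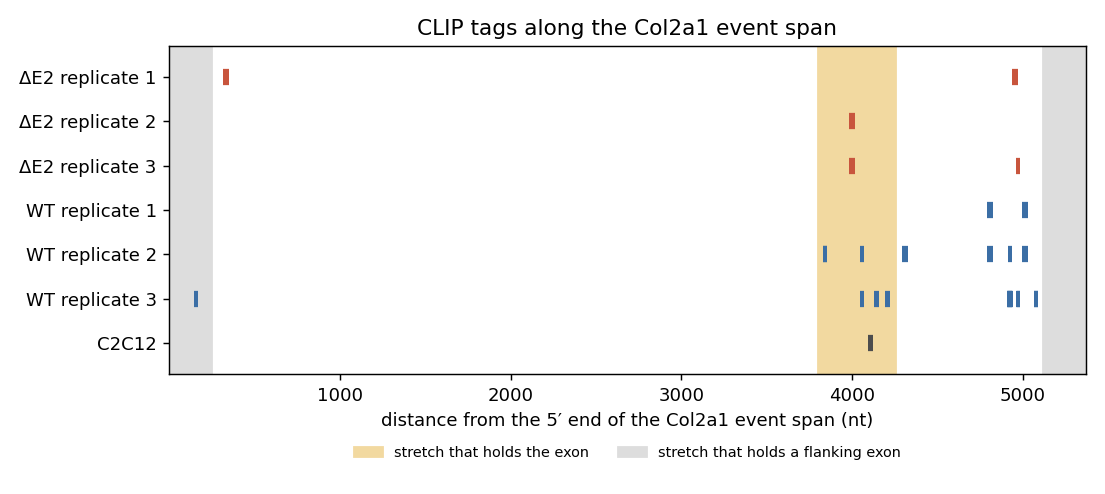
Position of each CLIP tag (bars) along the Col2a1 event, as distance in nt from its 5′ end (x axis), by library (rows); the coloured band is the stretch from 3803 to 4261 nt within which the exon lies, and grey bands can hold the flanking exons. Tags of the WT libraries lie mostly in the band and between 4791 and 5091 nt, and 17 of the 19 forelimb molecules start at or after 3803 nt.

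Col2a1 was among the events with most WT tags, but hardly marked in myoblasts. Its 20 WT tags were the 4th most of the 88 events, where the median was 2, and at 3.73 tags per kb it was 3rd by length. In WT RNA, its exon (204-nt form) also ranked 1st of the 98 listed by tags inside the exon per nt, at 1.72 against a median of 0.039. CLIP tags were not scaled to RNA level, so more of the RNA and more binding cannot be told apart in this rank. C2C12 had 1 tag in the event, or 1.82 CPM (95% exact Poisson interval 0.046 to 10.1), against 85.5 CPM in pooled WT forelimb (52.2 to 132). That tag, at 4095 to 4124 nt, also fell in the stretch within which the exon lies. For comparison, the median event had 5 C2C12 tags. RNA levels in C2C12 were not analysed here, so less of the RNA and less binding cannot be told apart.

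The other 2 genes had few or no tags. In the Acan event, ΔE2 replicate 1 had 1 tag and the merged ΔE2 replicates 0, against 1, 0 and 2 in WT. The groups overlap, at 7.43 ± 10.5 CPM in ΔE2 (SD, n = 2) and 14.8 ± 14.2 in WT (SD, n = 3; exact permutation p = 0.5). The exon of Acan could not be placed closely, since its flanking exons add up to 3641 nt, but 2 of its 3 WT molecules, from different libraries, overlapped at 11108 to 11137 nt. The Col11a2 event had 0 tags in every forelimb library, which allows up to 22.6 CPM in pooled ΔE2 and 12.8 in pooled WT (3 counts, counting error only). C2C12 had 0 tags in both events, which allows up to 5.45 CPM. On the opposite strand, the forelimb libraries had 0 tags in all 3 events, and C2C12 had 1, in Acan.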

How the data were processed

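The submitters' processing notes name the mm9 build, TopHat 1.3.2 and Bowtie for RNA-seq and Novoalign for CLIP, without saying which step each did. The authors' deposited exon table gives estimated counts of tags per isoform and junction as 1 total per genotype. It also gives, per the file headers, an odds ratio, a Fisher p-value with its adjusted p-value, and a change of inclusion (WT minus knockout). That change was recomputed from the deposited junction tags for 98 of 98 events within 0.05 points. The score that the authors deposited with each CLIP tag has no stated meaning and was not used; lines were counted as tags, after removal of repeats of position and barcode in the C2C12 file.

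Exon lengths are differences of the splice-site offsets in the event names. Tags overlapping an event span by at least 1 nt on its strand were counted and scaled to 1000000 tags of the library. Counts over 88 spans went into the quasi-likelihood test of edgeR 4.0.16 (R 4.3.3), scaled by library totals and filtered by filterByExpr at a count of 10; calls needed an adjusted p (Benjamini-Hochberg) of 0.05 or less. DESeq2 1.42.0 was the alternative. The edgeR steps were also run on simulated counts with means far above the real ones, which cannot show their power at this depth. Python 3.11.15, scipy 1.17.1 and statsmodels 0.14.6 gave intervals and exact permutation tests, which are two-sided.

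The genes, lists and tests were chosen with earlier results of these data known. The rule named the 3 genes with each event, members of the cartilage, muscle and skin lists with an event, and the events next in size to each member, of which 1 is not reported here. The labels call the CLIP samples biological replicates. No mm9 genome or annotation was used here, so exon sequences and whole-gene tag counts are not reported.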

Additional observations from a re-analysis of the deposited data

How the results depend on the processing

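The inclusion differences kept their direction under every computation tried: one junction alone, a pseudocount of 1, summed junctions, and, for Col2a1, both forms together. They ran from 11.7 to 19.7 points for the 204-nt and 7.38 to 15.1 for the 207-nt Col2a1 form, 25.96 to 40.9 for Col11a2 and 8.87 to 17.2 for Acan. At an adjusted p of 0.01, the table held 20 gains in place of 53. The relative junction totals of the 3 genes stayed under 1 in all 3 alternatives, which were chosen after the data were seen. Ranks from the lowest then ran from 7th to 10th for Col2a1, 5th to 9th for Acan and 1st to 2nd for Col11a2. With all estimated isoform tags, the unscaled Col11a2 ratio was 0.81, and its interval from counting error, 0.56 to 1.17, included 1. The Col2a1 difference in tags between ΔE2 and WT was negative in all 16 alternatives, from -61.4 to -32.4 CPM (exact permutation p from 0.1 to 0.333). With the 6 libraries as labelled it was -50.4, and the replicate block gave the same value (exact p = 0.25, the smallest possible). In a check of pairing by replicate number, correlations of same-numbered deviations over 23 spans were -0.10, -0.21 and 0.03. Of 6 libraries, 0 correlated best with its own number. With few tags per span, this check cannot show that the libraries were not paired. The Acan difference reversed to 0.94 CPM with spans extended by 10000 nt, and the Col11a2 difference of WT forelimb from C2C12 became 42.2 CPM there, since the wider window holds other sequence. The number of spans called, 1, was 0 in edgeR with TMM scaling, without the filter, with WT replicates 2 and 3 counted as 1 library, with each molecule in 1 library and with at least 2 reads per tag, and 0 in DESeq2 with either scaling. Leaving out 1 library at a time gave 0 to 1, with 0 without WT replicate 1, 2 or 3 or ΔE2 replicate 3; the called span was that of Fgfr2. Low tag numbers limit every CLIP comparison here.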

Other observations

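Windows reaching 10000 nt beyond each event on the gene's strand were also counted; they were not assigned to genes. Around Col2a1, the ΔE2 libraries had 4 and 2 tags and the WT libraries 2, 8 and 13, so that the window added 2 ΔE2 and 3 WT tags to those of the event. Around Acan, the ΔE2 libraries had 2 and 2 tags and the WT libraries 1, 2 and 4, or 30.1 ± 0.50 CPM in ΔE2 (SD, n = 2) and 29.1 ± 2.71 in WT (SD, n = 3), with overlapping values. Around Col11a2, where the event itself had none, the ΔE2 libraries had 2 and 4 tags and the WT libraries 3, 6 and 3. C2C12 had 1, 0 and 5 tags in the windows of Col2a1, Acan and Col11a2.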
